A study of Mus musculus with 25 samples.

Results

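The Nfix locus was read as every CpG starting between 87220000 and 87327000 on mouse chromosome 8 (mm9), a window of 107 kb. The window was chosen from these same data, because methylation there was higher after transplantation in the 1-kb tile that starts at 87245001 (the picked tile) and in the tiles from 87295001 to 87298000 (the picked 3 tiles). Transplanted against untransplanted libraries is therefore given as a description, with no test. In the window, 631 CpGs were listed in any library. Of these, 467 had 5 or more reads in at least 1 library, out of 1587545 such CpGs in the series; 192 had them in every library and 164 never did. The 467 CpGs fell in 47 tiles of 1 kb, and 22 of these tiles held a CpG read 5 or more times in every library.

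DNA methylation was measured by reduced representation bisulfite sequencing (RRBS), which reads CpG-rich restriction fragments after bisulfite has turned unmethylated cytosines into a base read as T. All 25 libraries were haematopoietic stem cells (HSCs), the self-renewing source of the blood lineages, from C57Bl/6 mice. Fetal HSCs came from the liver at e14.5 (n = 2). All other HSCs came from bone marrow: young mice of 3.5 months (n = 2), old mice of 25 months (n = 2), and mice of 3.5 months kept for a further 6 months. The last were given 5-fluorouracil (5-FU) in 0 (n = 3), 2 (n = 3) or 4 (n = 2) doses; 5-FU is a drug that kills cycling cells and forces surviving stem cells to divide. The transplanted groups descended from 10 (n = 3), 50 (n = 1) or 500 (n = 1) young HSCs and from 10 (n = 2), 50 (n = 1) or 500 (n = 3) old HSCs. The sources used here do not name the recipients, the time after transplantation or the sorting gates, and do not say that replicates were separate animals, so a p-value measures the spread between these libraries, which may be technical. The identity of the cells was not checked against markers, since the files hold methylation only. Summed over CpGs, the read counts of a library came to 22835325 to 105187091 in all and 7438 to 30049 in the window. A read that spans several CpGs is counted at each of them, here and in all pooled read numbers below. In the window, 282 to 396 CpGs of a library had 5 or more reads. No pair of libraries held identical counts.

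Nfix encodes nuclear factor I X, a transcription factor that binds DNA as a dimer and is known in mouse HSCs for a role in their survival after transplantation. Methylated CpGs in a promoter or enhancer usually go with a silent or less accessible element, while dense clusters of CpGs at promoters are usually free of methylation. RefSeq's gene table, on the later build GRCm38.p6, orders the genes along this stretch as Trmt1 (a tRNA methyltransferase), Lyl1 (a basic helix-loop-helix factor of blood stem cells), Nfix and Dand5 (a secreted inhibitor of Nodal signalling). It places the long non-coding RNA G430095P16Rik inside Nfix, which is read from the minus strand. No annotation of mm9 was used, so exons, introns and untranslated regions are not assigned to the CpGs.

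Promoters were found in the window by the spacing of their CpGs. RefSeq's 300-base promoter sequences (250 bases before the start of transcription and 50 after) were slid along the listed CpGs, and 3 of the 7 tried were placed, each by 3 or more CpGs. The distances between the 3 placements differed from those in RefSeq by 0 bp. They are shown because they tie the measured CpGs to genes; capitals mark the CpGs that had 5 or more reads.
Nfix, 1 of the 4 Nfix promoters tried, GRCm38.p6 chr8:84773361-84773660, minus strand: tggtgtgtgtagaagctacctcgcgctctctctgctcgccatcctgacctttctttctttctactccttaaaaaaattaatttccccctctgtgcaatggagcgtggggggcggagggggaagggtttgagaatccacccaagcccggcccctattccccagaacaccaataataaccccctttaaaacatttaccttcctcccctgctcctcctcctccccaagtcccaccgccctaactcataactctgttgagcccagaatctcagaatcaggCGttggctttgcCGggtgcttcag
G430095P16Rik, GRCm38.p6 chr8:84722807-84723106, plus strand: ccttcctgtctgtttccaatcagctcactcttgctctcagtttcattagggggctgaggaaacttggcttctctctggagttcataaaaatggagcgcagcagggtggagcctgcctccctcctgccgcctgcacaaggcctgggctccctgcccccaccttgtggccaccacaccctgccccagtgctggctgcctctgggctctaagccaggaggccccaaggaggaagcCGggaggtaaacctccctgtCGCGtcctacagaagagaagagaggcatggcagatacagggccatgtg
Lyl1, GRCm38.p6 chr8:84701207-84701506, plus strand: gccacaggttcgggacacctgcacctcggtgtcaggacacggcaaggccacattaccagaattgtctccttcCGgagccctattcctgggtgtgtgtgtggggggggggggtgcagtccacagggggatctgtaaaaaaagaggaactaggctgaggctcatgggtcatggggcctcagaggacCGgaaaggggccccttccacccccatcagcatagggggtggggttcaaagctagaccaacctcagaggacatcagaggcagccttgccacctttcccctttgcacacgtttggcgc
The Nfix promoter was placed by 4 listed CpGs, a spacing found at 1 place on chromosome 8. The spacings of G430095P16Rik and Lyl1, of 3 CpGs each, were found at 2 and 5 places on it, 1 of them each in the window, so these placements rest on less. For Nfix, the 2 measured CpGs lie at 87297270 and 87297282 (mm9), in the picked 3 tiles. The Lyl1 CpGs start at 87225178 and those of G430095P16Rik at 87246938, in the tile just after the picked tile. The other promoters of Nfix were not placed, and nothing is said here of them.

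The window held stretches that were unmethylated in all cells beside stretches that varied, as the plot of all tiles by library shows. In 7 tiles with 136 shared CpGs, starting at 87225001, 87227001, 87228001, 87229001, 87230001, 87323001 and 87324001, each of the 25 libraries was under 10%, and the highest level was 6.18%. The tile at 87324001 had the lowest mean over the libraries, 0.263% over 31 CpGs. These CpG-dense tiles include the Lyl1 promoter, which read at most 6.12% in the 21 libraries that covered both of its CpGs. The highest mean was 93.6%, at the tile starting at 87290001, which rests on 1 CpG. The last covered CpGs before the window, from 87215186 to 87215337, read 70.5% to 94.8% in 24 libraries, and the first tile inside it, at 87223001, read 6.04% to 80.0%.

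**Figure D1:**
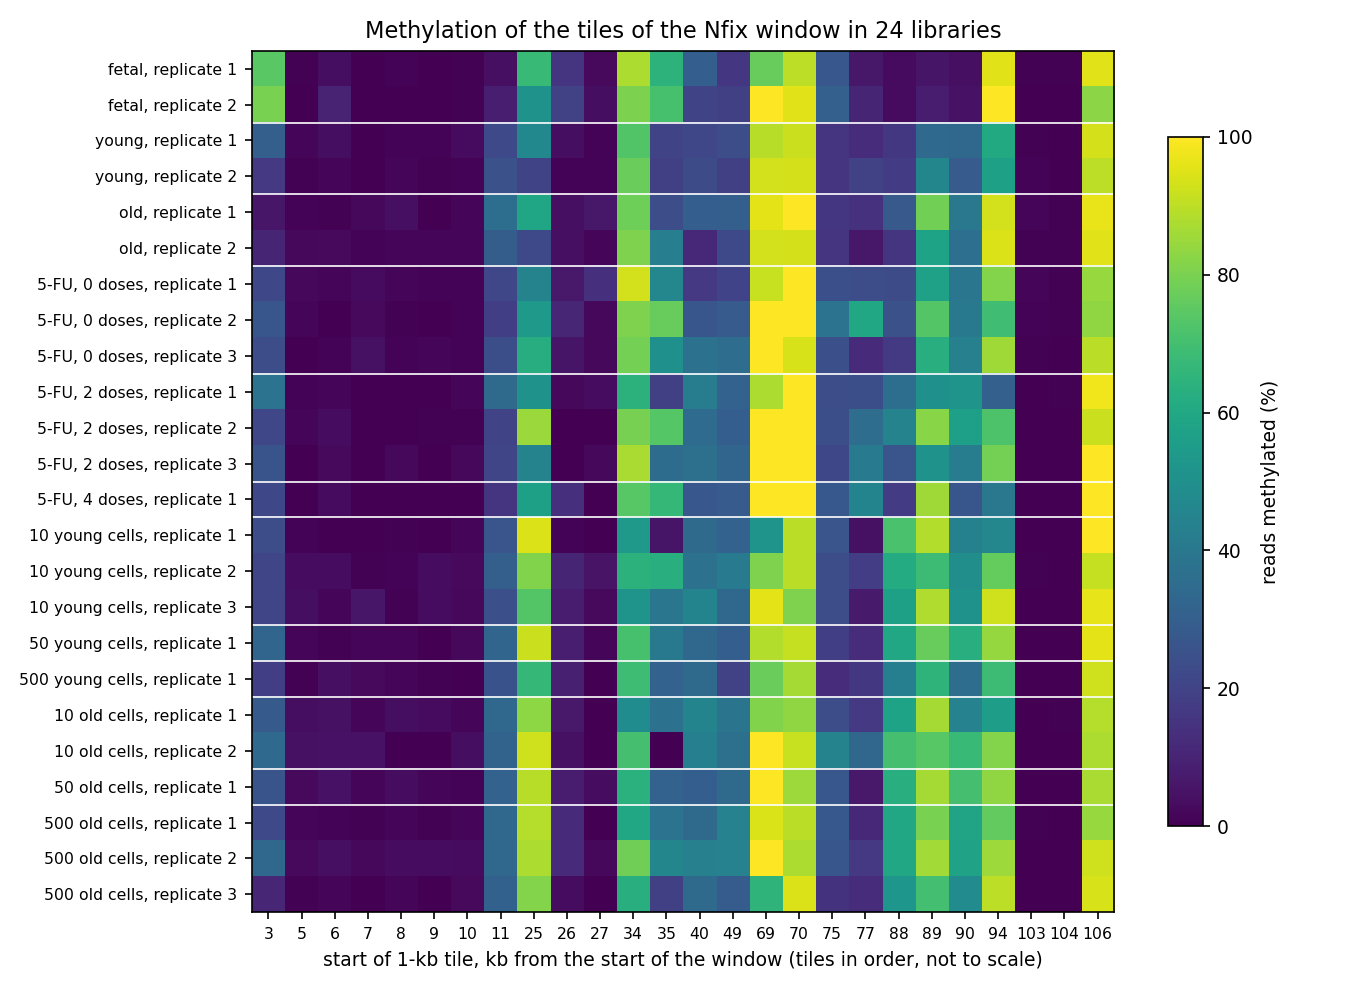
Percent of reads methylated in each 1-kb tile of the window (columns, by distance in kb from the window's start) in 24 libraries (rows, by group), over CpGs with 5 or more reads in each of these libraries. Dark columns are tiles with little methylation, among them the 7 tiles under 10% in every library; the columns of the picked tile and of the 3 tiles from 87308001 are brighter in most transplanted libraries than in young ones.

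The picked tile, 87245001 to 87246000, was read over 5 CpGs in 24 libraries; in replicate 2 of the 4-dose group no CpG of it had 5 reads. Young libraries stood at 46.5% and 20.4%, old libraries at 59.1% and 22.0%, and fetal libraries at 67.6% and 50.9%. After 10 young cells the level was 94.9%, 81.2% and 73.2%, and after 10 old cells 83.1% and 92.6%. After 500 old cells it was 88.7%, 87.9% and 81.4%. The transplanted libraries of these groups lay above every young and old library. The single libraries read 91.9% after 50 young cells (95% Wilson interval 85.8 to 95.6), 66.7% after 500 young cells (52.5 to 78.3) and 89.1% after 50 old cells (82.6 to 93.4). Intervals leave out the spread between libraries and treat each count as independent. Reads without molecular identifiers are not independent molecules, and a read is counted at each CpG it covers. The intervals can therefore be too narrow even for counting error. The libraries of mice kept for 6 months without 5-FU, at 44.8%, 54.0% and 62.1%, lay below all transplanted ones and overlapped the young and old libraries. With 2 doses the level was 51.1%, 85.1% and 44.9%, so that 1 library reached the range of the transplanted groups. The read depth of the tile was 43 to 338 per library.

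In order of mean level, the groups ran from young (33.5% ± 18.4, SD, n = 2) through old (40.6% ± 26.2, n = 2), 0 doses (53.7% ± 8.66, n = 3), 4 doses (56.8%, 1 library), fetal (59.3% ± 11.8, n = 2), 2 doses (60.3% ± 21.6, n = 3) and 500 young cells to the other transplanted groups. Each of these neighbours up to 500 young cells overlapped the next. The 500 young cells did not overlap the 10 young cells (83.1% ± 10.97, n = 3). Next came 500 old cells (86.0% ± 3.99, n = 3) and 10 old cells (87.8% ± 6.74, n = 2). From 10 young cells up to 50 old cells, each group overlapped the next. The library from 50 young cells came last in the order and lay above that from 50 old cells. Single libraries from 10 young cells (94.9%) and 10 old cells (92.6%) read higher still.

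**Figure D2:**
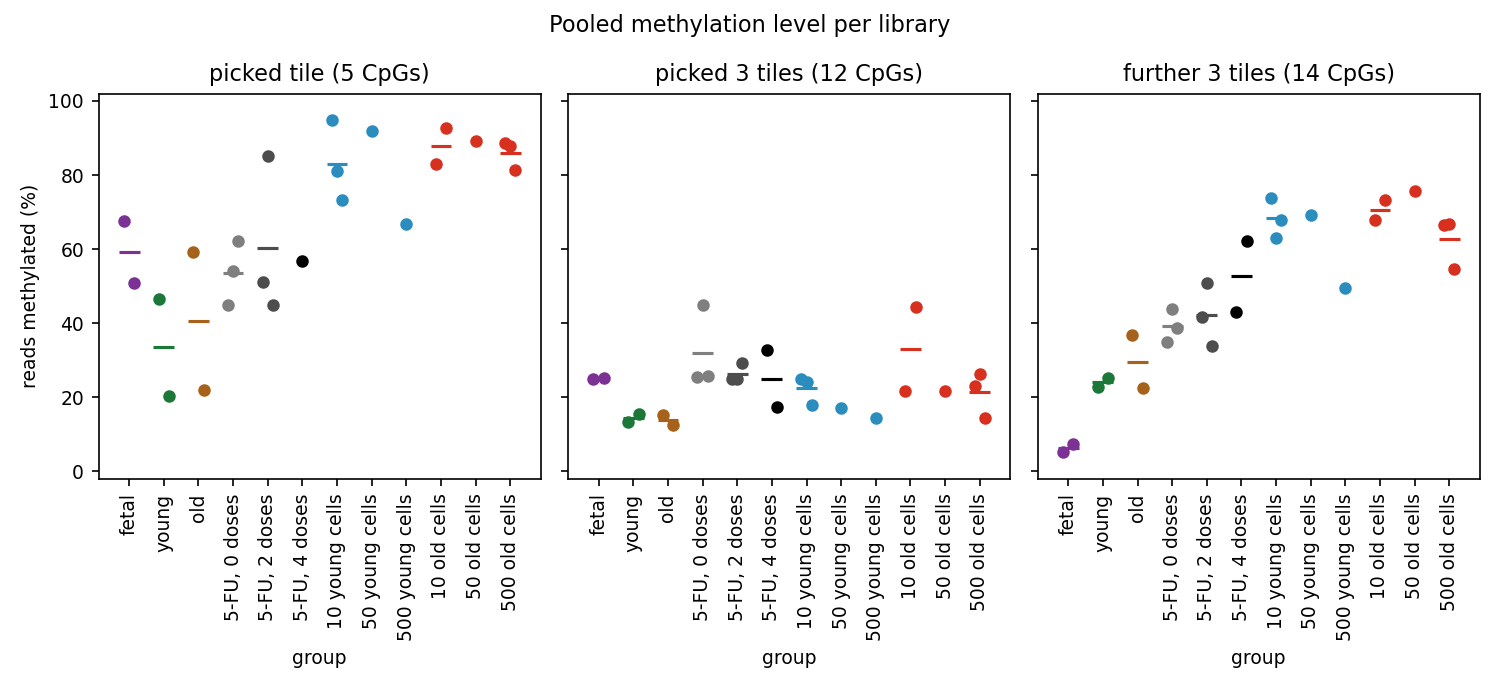
Percent of reads methylated per library (points) and group mean (bars, groups of 2 or 3 libraries) in the picked tile, the picked 3 tiles and the further 3 tiles from 87308001 to 87311000. In the picked tile the transplanted libraries span 66.7% to 94.9%, and in the further 3 tiles 49.6% to 75.7%, while the picked 3 tiles stay at 12.6% to 45.0% in all libraries.

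The 5 CpGs of the picked tile fell into 2 clusters that behaved differently. The 3 CpGs from 87245547 to 87245565 read 20.8% and 7.82% in young and 6.38% and 11.4% in old libraries. At the same CpGs the level was 100%, 80.0% and 88.9% after 10 young cells, 68.3% and 84.2% after 10 old cells, and 79.2%, 80.8% and 91.7% after 500 old cells. The libraries of these transplanted groups lay above all young and old libraries at this cluster, while the transplanted groups overlapped each other, as young did with old. The 0-dose libraries read 36.4%, 51.9% and 31.9%, above every young and old library and below every transplanted one. The fetal libraries disagreed with each other, at 62.3% and 11.5%, as did the 2-dose libraries, at 32.0%, 75.9% and 0 of 37 reads. As independent reads, these 37 would allow a share of up to 8.11%. They are summed over 3 neighbouring CpGs, so fewer molecules underlie them and the share allowed is higher. The 2-dose library at 75.9% lay above the libraries from 500 young cells, at 63.6%, and from 10 old cells, replicate 1. These values rest on 15 to 243 reads per library, summed over the 3 CpGs.

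The 2 CpGs at 87245959 and 87245969, the deepest of the tile, read 48.1% or more in each of the 24 libraries. They read 62.8% and 52.6% in young, 73.4% and 48.1% in old, and 93.4%, 81.5% and 65.8% after 10 young cells. After 10 old cells they read 90.4% and 97.1%, and after 500 old cells 96.6%, 92.0% and 68.4%. The 500-old-cell libraries overlapped the old ones here, while the 10-young-cell and 10-old-cell libraries lay above the young and the old ones. The pooled level of the tile thus also depends on how the reads of a library divide between the clusters: in young replicate 2, 243 of 338 reads fell on the first cluster, and in 10 young cells replicate 1, 31 of 137 reads did. The difference between transplanted and untransplanted libraries was present within the first cluster itself.

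**Figure D3:**
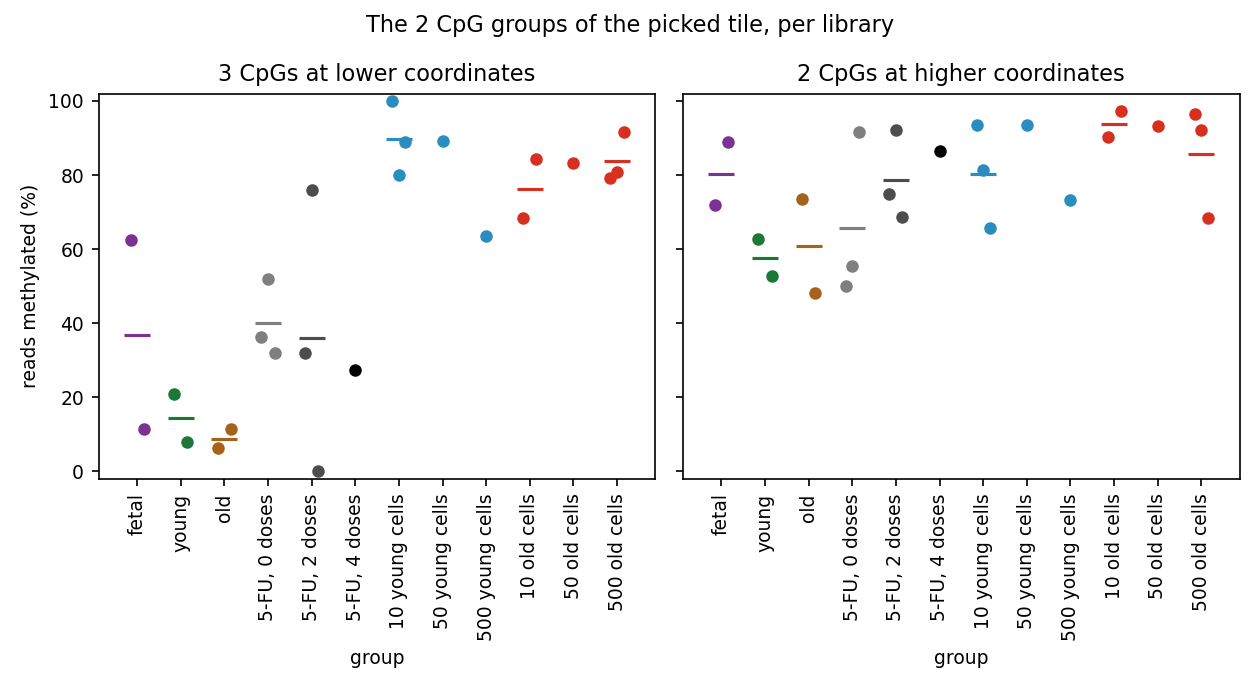
Percent of reads methylated per library (points) and group mean (bars) in the 3 CpGs at lower coordinates and the 2 CpGs at higher coordinates of the picked tile. The first cluster reads 6.38% to 20.8% in young and old libraries and 63.6% or more after transplantation; the second reads 48.1% or more in all libraries.

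The picked 3 tiles, 87295001 to 87298000, were low to intermediate in every group (12 CpGs shared by all libraries). Young libraries read 13.4% and 15.5%, old libraries 15.3% and 12.6%, and fetal libraries 24.9% and 25.3%. After 10 young cells the level was 25.0%, 24.2% and 18.0%, and after 10 old cells 21.8% and 44.3%. After 500 old cells it was 23.2%, 26.3% and 14.52%, so that 1 of the 3 libraries lay within the range of the old libraries. The 10-cell libraries lay above the young and old libraries, but the level was as high in mice that had not been transplanted: 25.5%, 45.0% and 25.8% with 0 doses, 24.9%, 25.0% and 29.2% with 2 doses, and 32.7% and 17.3% with 4 doses. The single libraries read 17.3% after 50 young cells (Wilson interval 15.03 to 19.7), 14.4% after 500 young cells (11.9 to 17.4) and 21.7% after 50 old cells (18.9 to 24.8). In the order of means, old, 500 young cells and young overlapped at 13.9% to 14.4%, young did not overlap the next group, and from 50 young cells up to 10 old cells (33.1% ± 15.9, n = 2) each group overlapped the next.

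Within these 3 tiles the levels came from different CpGs. In the first tile, 87295001 to 87296000, the 10-young-cell libraries exceeded the young libraries at 4 of 15 CpGs, the 10-old-cell libraries exceeded the old at 12 of 15, and the 500-old-cell libraries at 6 of 15. Its deepest CpGs, at 87295684 and 87295898, went opposite ways with 4 doses: the first read 23.4% to 34.3% after 10 young cells against 27.6% and 34.5% in young libraries, while with 4 doses it read 87.5% and 65.4%. The second read 10.3% to 28.4% after 10 young cells against 15.2% and 21.2% in young libraries, and 8% and 0% with 4 doses. The tile at 87296001 rested on 34 to 187 reads per library, and its 5 CpGs read 63.2% and 16.2% after 10 old cells against 2.11% and 10.6% in old libraries. In the tile at 87297001, with 7 CpGs, the level was 2.44% to 13.2% after 10 young cells and 7.87% to 12.8% in young libraries. No CpG of that tile was higher in each of the 10-young-cell libraries than in both young ones. For the counts of CpGs here and below, the share of all covered CpGs meeting the same rule is not given. These counts are description only.

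The 2 measured CpGs of the placed Nfix promoter, in that last tile, did not follow the transplanted groups. They read 30.1% and 38.6% in young libraries, 6.94%, 27.9% and 14.7% after 10 young cells, and 18.8%, 24.7% and 24.4% after 500 old cells. Old libraries read 26.7% and 14.7%, and 10 old cells 24.4% and 46.2%. The levels were 33.3%, 76.7% and 34.5% with 0 doses, 37.3%, 47.4% and 51.4% with 2 doses, 53.8% and 41.7% with 4 doses, and 8.87% and 19.8% in fetal libraries. The 5-FU and 0-dose libraries thus lay above all 3 libraries from 10 young cells and above both fetal libraries, and the 10-young-cell libraries lay below both young ones. These shares rest on 24 to 241 reads per library and were not tested on their own. At the G430095P16Rik promoter, 1 tile after the picked tile, 3 CpGs read at most 8.50% in 24 libraries, with a median of 0.843%.

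Across the window, tiles with 3 or more CpGs could be set side by side for 3 of the transplanted groups. After 10 young cells, 7 of 21 tiles were higher than in young HSCs by 10 points or more with no overlap of libraries, and 0 were lower; of all 90382 autosomal tiles, 1.68% were higher and 22.7% lower by the same rule. After 10 old cells, 8 of 21 were higher than in old HSCs and 0 lower (all tiles 1.09% and 33.4%). After 500 old cells, 5 of 21 were higher and 0 lower (all tiles 0.818% and 17.7%). Because the window was chosen on this contrast, nothing is read from these shares. The median difference over the 21 tiles was 3.94, 2.98 and 2.75 points, and over all tiles -4.43, -6.41 and -3.82 points. The counts share their controls: both old-cell comparisons use the same 2 old libraries. With the 0-dose libraries as control, the count for 10 young cells was 3, and without replicate 3 of the 500-old-cell group its count was 8.

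The tiles higher in all 3 comparisons were 87245001, 87269001, 87308001 and 87310001. At 87308001, over 15 CpGs shared by 24 libraries, the level was 71.4%, 61.6% and 56.7% after 10 young cells, 58.0% and 70.5% after 10 old cells and 59.4%, 59.8% and 52.4% after 500 old cells. Young libraries read 16.2% and 17.7% there, and old libraries 28.0% and 14.9%. The lowest of these transplanted libraries stood above the highest young or old one. Of the CpGs of this tile that could be compared, each of the 10-young-cell libraries exceeded both young libraries at 29 of 30. The share over all CpGs is not given for this count, so nothing is read from it. At 87269001, with 11 CpGs, 10 young cells gave 30.8% to 39.9% against 17.7% and 21.7% in young libraries. The tile at 87309001 was higher than young after 10 young cells, by 41.7 points, while the old libraries, at 78.6% and 58.0%, overlapped the libraries from 10 old cells, at 86.6% and 74.1%. The tile at 87223001 was 23.1 points higher after 10 old cells than in old HSCs, whereas 10 young cells differed from young by -1.51 points.

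The tiles from 87308001 to 87311000 were not among those named in choosing the window, although 87308001 and 87310001 rank with them above. They were pooled after their values were seen, so the pooled level is a description. Over 14 CpGs shared by all libraries, fetal HSCs read 5.23% and 7.29%, young 22.9% and 25.2%, old 36.9% and 22.4%, and 0 doses 34.98%, 43.9% and 38.6%. With 2 doses the level was 41.7%, 50.8% and 33.8%, and with 4 doses 43.1% and 62.2%. After transplantation it was 73.9%, 63.1% and 67.8% (10 young cells), 67.8% and 73.2% (10 old cells), and 66.4%, 66.9% and 54.8% (500 old cells). The fetal libraries stood apart below all others, by 17.8 points in group means to the next group. The 11 transplanted libraries ran from 49.6% to 75.7% and the 12 untransplanted adult libraries from 22.4% to 62.2%; the overlap comes from 500 young cells (49.6%, Wilson interval 45.0 to 54.1), the third 500-old-cell library and the higher 4-dose and 2-dose libraries. The 50-cell libraries read 69.1% (63.7 to 74.0) for young and 75.7% (71.9 to 79.1) for old donors. The stretch begins 10.4 kb beyond the placed Nfix promoter, on the upstream side of that promoter. Other Nfix promoters were not placed, so whether the stretch lies inside or outside the gene is not given here.

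**Figure D4:**
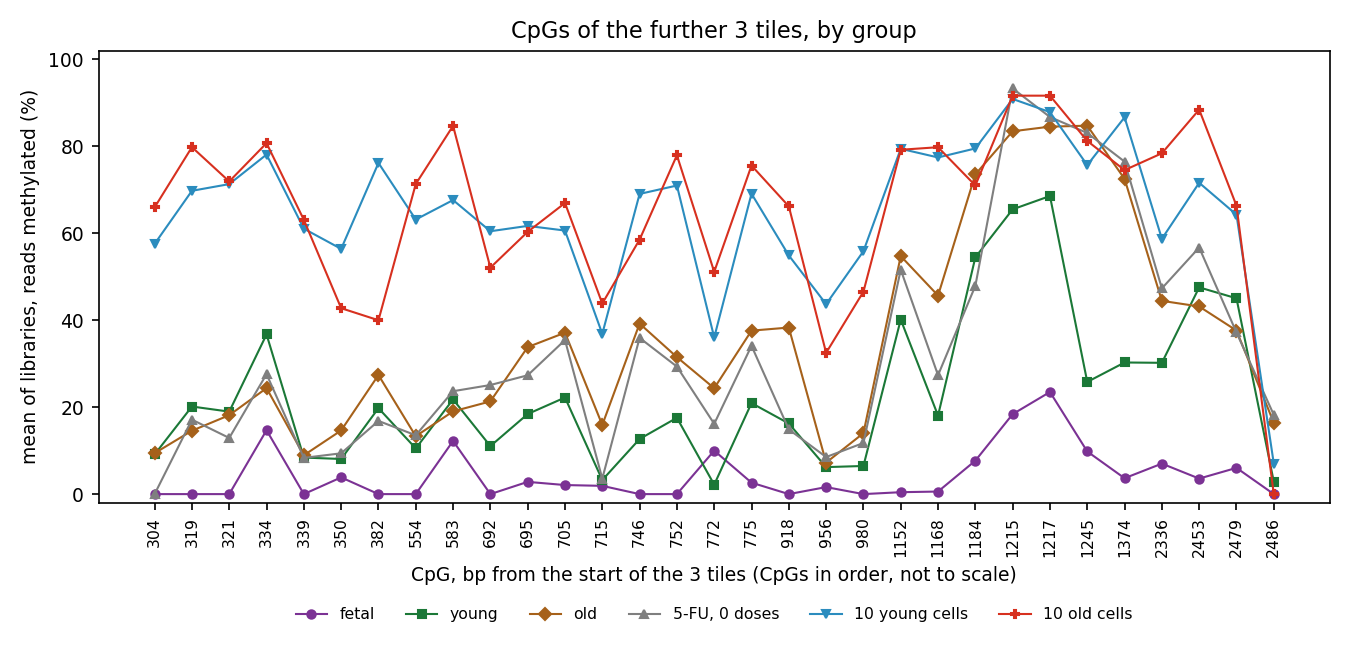
Mean percent of reads methylated at each CpG from 87308001 to 87311000 (CpGs with 5 or more reads in 24 or 25 libraries, in order) for 6 groups. The fetal line lies under 25% at every CpG, and the lines for 10 young and 10 old cells lie above the young line at all CpGs, except that of 10 old cells at the last one.

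The gain over fetal HSCs in this stretch was tested per tile; the window was chosen on transplanted against untransplanted libraries, not on fetal against young ones. Young HSCs were more methylated than fetal HSCs at all 3 tiles. At 87308001 the level was 2.48% and 2.60% in fetal and 15.3% and 17.6% in young libraries over 29 CpGs, a difference of 13.9 points with an adjusted p of 0.000991. At 87309001 it was 6.26% and 5.81% against 34.6% and 43.7% over 11 CpGs, a difference of 33.1 points (adjusted p = 1.35e-05). At 87310001 it was 4.76% and 12.7% against 39.5% and 37.3% over 5 CpGs, a difference of 29.7 points (adjusted p = 0.000195). The young libraries lay above the fetal ones at 24 of 29, 9 of 12 and 4 of 5 CpGs of the tiles, counts given without the share over all CpGs. The p-values come from a quasi-binomial model of methylated and total reads with its dispersion moderated by limma, adjusted by Benjamini-Hochberg over 100896 autosomal tiles. With limma on the tile levels, the adjusted p was 0.0915 at 87308001 and 0.0691 at 87309001, and in a fit of all 25 libraries it was 0.197 at 87308001.

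In the same comparison, 7 of 22 tiles of the window passed the test with 10 points or more, 4 gained and 3 lost; of all tiles, 5.74% passed, 1.91% gained and 3.83% lost. The fourth gain was at 87231001, at the edge of the unmethylated stretch, with 3.93% and 6.53% in fetal and 20.8% and 21.9% in young libraries (adjusted p = 0.00263, and 0.0820 without fetal replicate 1). The largest loss was at 87223001, near the start of the window: 74.3% and 80.0% in fetal against 30.2% and 16.5% in young libraries, a difference of -53.8 points (adjusted p = 4.49e-07), with young below fetal at 6 of 6 CpGs. At 87246001, beside the picked tile, the level fell from 15.4% and 19.9% to 3.75% and 0.911% (adjusted p = 0.00105), with young below fetal at 2 of 5 CpGs. The 3 CpGs of the placed G430095P16Rik promoter, in this tile, read 0.709% and 0% in fetal and 0% and 0.135% in young libraries.

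Of the 3 losses, 1 was the picked tile at 87295001. The young libraries' low level there was used in choosing it, so the picked tiles are described here with no test and that call supports nothing. Fetal libraries read 29.7% and 33.8% and young libraries 16.1% and 17.6% over 15 CpGs, a difference of -14.8 points, and both young libraries lay below both fetal ones at 9 of 15 CpGs. The call was lost without any 1 of these 4 libraries. At 87245001 young differed from fetal by -25.8 points with no overlap of libraries, and by -38.9 points without young replicate 1. This pooled level also depends on how reads divide between the clusters of the tile. In the cluster at lower coordinates the groups overlapped, with 62.3% and 11.5% in fetal and 20.8% and 7.82% in young libraries. In the other cluster they did not overlap, with 71.9% and 88.9% in fetal and 62.8% and 52.6% in young libraries. The tiles at 87296001 and 87297001 differed by -1.60 and 3.68 points, and there the libraries of the groups overlapped.

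**Figure D5:**
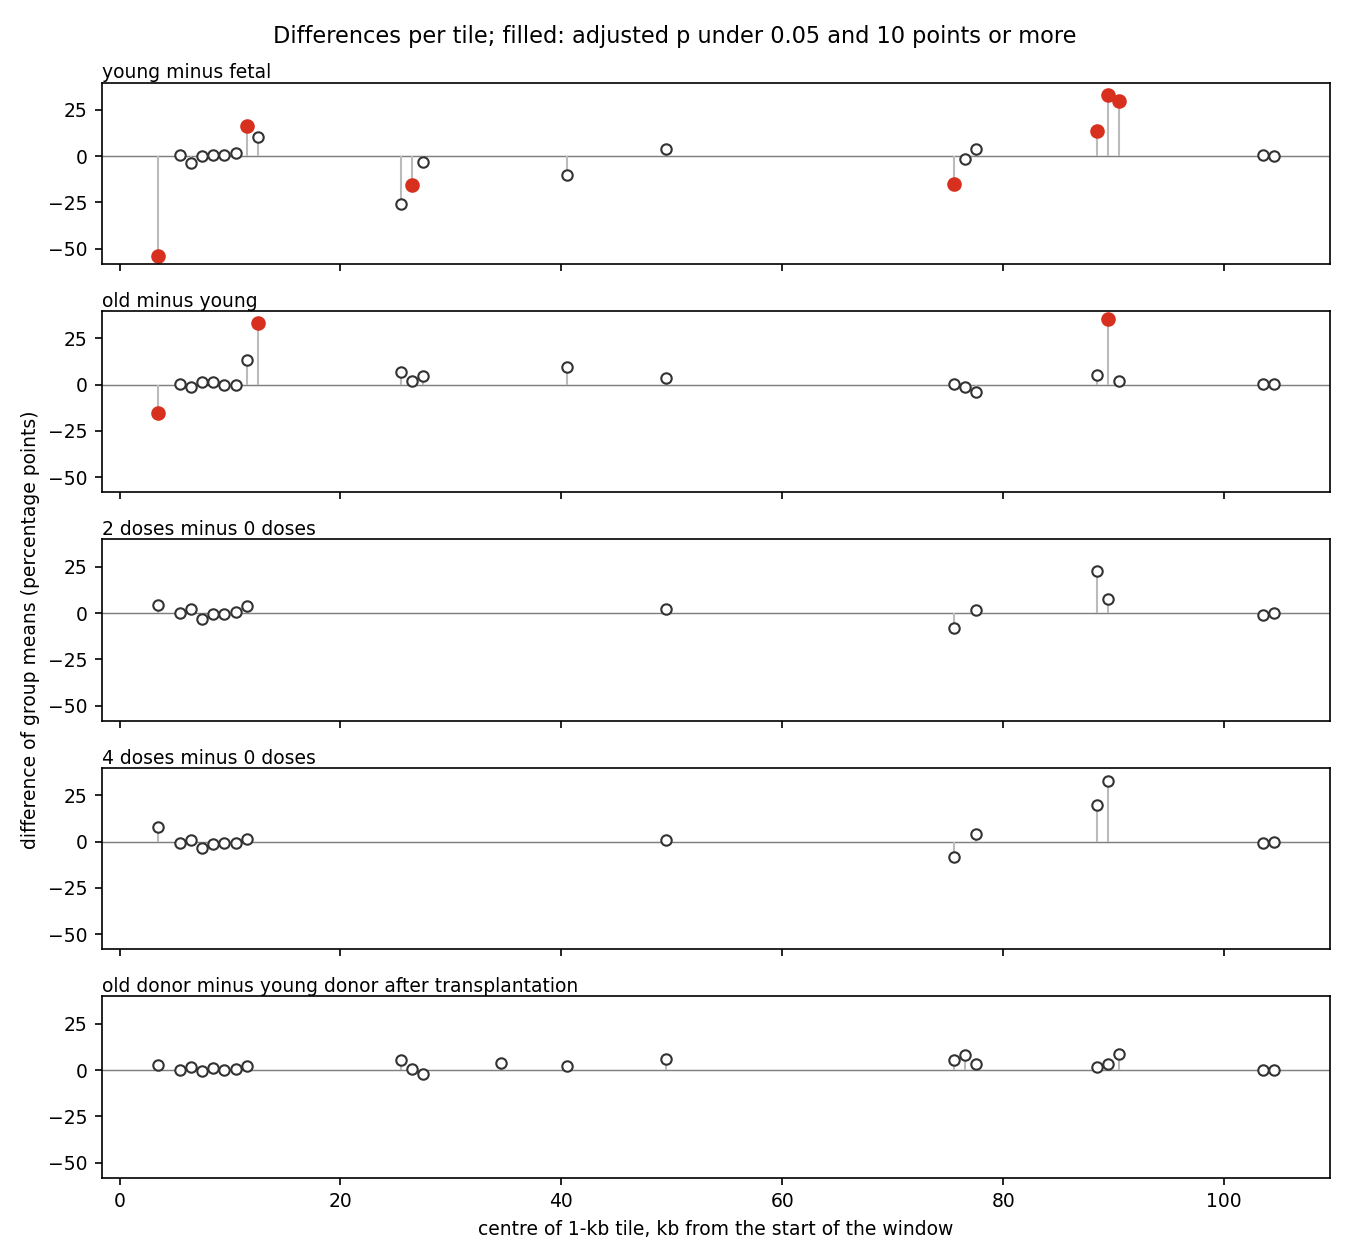
Difference of group means per 1-kb tile (percentage points) against the distance of the tile's centre from the window's start, for 5 comparisons. Filled points passed an adjusted p under 0.05 with 10 points or more: 7 tiles for young minus fetal, 3 for old minus young and 0 in the other comparisons.

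Old HSCs differed from young HSCs at 3 of 22 tiles, 2 gained and 1 lost; of all tiles, 3.53% passed, 3.32% gained and 0.208% lost. The count was 0 without old replicate 1, and 1 without old replicate 2 or without young replicate 1. At 87309001 the level was 83.6% and 65.5% in old against 34.6% and 43.7% in young libraries, a difference of 35.4 points (adjusted p = 0.00025), with old above young at 9 of 11 CpGs. This is the middle tile of the stretch that was higher in young than in fetal HSCs. Its neighbours did not pass: at 87308001 old libraries read 27.2% and 16.1%, a difference of 5.25 points (adjusted p = 0.539), and at 87310001 they read 41.6% and 38.9%, a difference of 1.82 points (adjusted p = 0.918). The call at 87309001 was lost without old replicate 1, with a difference of 24.8 points and an adjusted p of 0.182, and the adjusted p ranged from 0.000188 to 0.974 over the alternatives, with 0.0865 by limma and 0.974 in the fit of all 25 libraries.

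The other gain with age was at 87232001, with 37.1% and 70.3% in old against 13.98% and 26.8% in young libraries over 4 CpGs and 35 to 291 reads (adjusted p = 0.0410). The loss was at 87223001, with 6.04% and 10.4% in old against 30.2% and 16.5% in young libraries, a difference of -15.2 points (adjusted p = 0.0135). The level at this tile passed as lower from fetal to young and again from young to old HSCs. Both calls depended on single libraries. At 87232001 the adjusted p was 0.745 and 0.0521 without old replicate 1 and 2, and 0.0815 and 0.232 without young replicate 1 and 2. At 87223001 it was 0.424, 0.101 and 0.504 without old replicate 1, old replicate 2 and young replicate 1. At the picked tiles, where both groups entered the choice, the differences between old and young were 7.12 points at 87245001, 0.630 at 87295001, -1.49 at 87296001 and -3.78 at 87297001, and the libraries overlapped at each.

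The 5-FU groups were compared with the 0-dose mice of the same age, and the 0-dose mice with young mice that were 6 months younger. Of the 15 tiles that could be tested, 0 passed in the 3 comparisons, by the quasi-binomial test or by limma; of all 57204 tiles, 0.00175% passed for 2 doses, 0% for 4 doses and 0.00524% for 0 doses against young, 0.0035% gained and 0.00175% lost. At an unadjusted p under 0.05 there were 1, 2 and 1 tiles of the window, against 3.55%, 6.74% and 4.397% of all tiles. These tiles lay in the stretch from 87308001 and in the picked 3 tiles. At 87308001, over 9 CpGs, 0 doses gave 14.3%, 14.7% and 10.8%, 2 doses gave 37.4%, 44.5% and 26.5%, and 4 doses gave 21.9% and 44.2%. The treated libraries lay above the untreated ones; the differences were 22.9 points for 2 doses (adjusted p = 0.939) and 19.8 points for 4 doses (adjusted p = 0.665). At 87309001, 4 doses gave 91.2% in both libraries against 51.4%, 67.1% and 56.9%, a difference of 32.7 points (adjusted p = 0.665), while 2 doses gave 55.8%, 82.4% and 59.4%. At 87295001, 0 doses gave 26.1%, 40.3% and 29.1% against 13.6% in both young libraries, a difference of 18.3 points; the young libraries' values entered the choice of this tile. The comparisons of 2 and of 4 doses share the 0-dose libraries. The picked tile could not be fitted here, because of replicate 2 of the 4-dose group.

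Donor age was compared within the 11 transplanted libraries, with the number of cells as a covariate. Of 22 tiles, 0 passed by the quasi-binomial test or by limma (0% of all 93599 tiles), and 2 had an unadjusted p under 0.05 (3.39% of all tiles). High levels after transplantation entered the choice of the picked tiles. No conclusion is therefore drawn from p-values at those tiles, in this comparison or in that of 10 and 500 old cells. At the picked tile, old donors gave 81.4% to 92.6% (6 libraries) and young donors 66.7% to 94.9% (5 libraries), a difference of 5.55 points (adjusted p = 1.00). At 87295001 the difference was 5.39 points, 29.5% ± 8.02 (n = 6) against 24.1% ± 6.74 (n = 5), with an adjusted p of 1.00; the other tile under the unadjusted threshold was 87269001, with 6.11 points (adjusted p = 1.00). The libraries of the donor ages overlapped at each of these tiles. Between 10 and 500 old cells, 0 of 22 tiles passed by either test (0% of all tiles), and 0 had an unadjusted p under 0.05 (2.97% of all tiles). At the picked tile these groups differed by 1.85 points, and at 87296001 by 21.7 points, with 16.2% and 63.2% against 4.23% to 37.1% (adjusted p = 1.00).

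Single values per library over the picked regions and the whole window were compared by two-sided exact permutation tests. Of 9 planned, 7 were run with all libraries and adjusted together, and 0 of these had a p under 0.05. Young, old and transplanted libraries entered the choice of the picked regions. No conclusion is therefore drawn from the p-values there for donor age and for fetal against adult HSCs. With 5-FU the picked 3 tiles read 25.8% ± 5.73 (n = 5) against 32.1% ± 11.2 with 0 doses (n = 3), a difference of -6.28 points (exact permutation p = 0.357, adjusted p = 0.5). That difference was 0.178 points without 0-dose replicate 2, the library at 45.0%. The whole window read 10.7% ± 1.17 against 11.9% ± 1.41 (exact permutation p = 0.286, adjusted p = 0.5), and as a mean of CpG levels the difference was 0.782 points, of the other sign. For old against young donors after transplantation the differences were 5.55 points in the picked tile, 5.48 in the picked 3 tiles and 2.12 in the whole window (exact permutation p = 0.316, 0.212 and 0.177; adjusted p = 0.5 each). Fetal HSCs read 25.1% ± 0.279 (n = 2) in the picked 3 tiles against 23.5% ± 9.45 in the 12 untransplanted adult libraries (exact permutation p = 0.835, adjusted p = 0.835). Over the whole window they read 9.25% ± 0.0239 against 10.1% ± 1.55 (exact permutation p = 0.505, adjusted p = 0.590); with 10 reads per CpG the difference changed sign, to 0.136 points. The other 2, at the picked tile, were run without the 4-dose library that lacked reads and outside the adjustment, a change made after the data were seen: 5-FU differed from 0 doses by 5.80 points and fetal from adult by 9.57 points (exact permutation p = 0.743 and 0.462).

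Outside the window, the autosomal tiles whose 12 group means ran most like those of the picked regions were searched among 53779 tiles, as a description with no test. For the picked tile the highest Pearson r was 0.966, for the tile at 69934001 to 69935000 on chromosome 2, whose group means ran from 38.4% in young HSCs to 72.1%. The next were 0.959 for the tile at 154008001 on chromosome 4, 0.933 at 153280001 on chromosome 3, 0.924 at 123029001 on chromosome 8 and 0.923 at 67189001 on chromosome 5. Group means of these tiles ran, in the same order, over 2.49% to 13.6%, 4.77% to 18.2%, 2.26% to 13.5% and 4.01% to 32.1%. For the picked 3 tiles the highest r was 0.896, for the tile at 115935001 to 115936000 on chromosome 11, with group means of 15.4% to 63.2%. The next were 0.862 at 92444001 on chromosome 16, 0.851 at 152872001 on chromosome 1, and 0.845 and 0.839 at 38056001 and 123005001 on chromosome 8. Their group means ran, in the same order, over 3.18% to 12.3%, 7.82% to 20.5%, 2.39% to 11.2% and 62.3% to 82.6%. The 12 means share the libraries and their depth, and the likeness was the best of a large search.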

How the data were processed

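RRBS followed a protocol adapted to few cells, per the labels' protocols. The build is mm9, as the submitters' processing notes have it; which aligner, caller and filters were used is not given in the sources used here. The authors' deposited files list methylated over total reads per CpG, and these counts were used as deposited. The deposited score follows the methylated share and was not tested. Members and lists were chosen with earlier results of these data known.

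CpGs with 5 or more reads in each library of a fit were summed in 1000-bp tiles with 3 or more CpGs on 19 autosomes. Separate fits held 6 libraries (fetal, young, old), 10 (young and the 5-FU groups) or 11 (transplanted, donor age with log10 of the cells). Each was a quasi-binomial model with Williams weights. Dispersions were moderated with limma's squeezeVar and held at 1 or more, and F tests were adjusted by Benjamini-Hochberg; a call needed an adjusted p under 0.05 and 10 points. The fits were tested on simulated data. Named tiles are the picked tiles and their covered neighbours, the highest and the lowest tile, called tiles and, added after values were seen, those set out for transplantation and 5-FU. Alternatives covered read and CpG minimums, the threshold, limma on tile levels, a fit of all libraries, a replicate block and each library left out. Python 3.11.15, numpy 2.4.6, scipy 1.17.1, pandas 2.3.3, matplotlib 3.10.9 and limma 3.58.1 in R 4.3.3 were used. Promoter sequences are RefSeq's, on GRCm38.p6.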

Additional observations from a re-analysis of the deposited data

Results flagged for a closer look

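At the tile starting at 87246001, beside the picked tile, the mean level was lower with 2 doses and higher with 4 doses of 5-FU than with 0 doses. Over 2 CpGs shared by all libraries, 0 doses gave 24%, 40.5% and 23.1%, 2 doses gave 9.38%, 0% and 0%, and 4 doses gave 57.1% and 35.7%. Each 2-dose library lay below each 0-dose library, while the 4-dose and 0-dose libraries overlapped. The difference from 0 doses was -26.1 points with 2 doses and 17.2 points with 4 doses. The libraries at 0 had 32 and 36 reads, summed over the 2 CpGs. As independent reads these would allow shares of up to 9.38% and 8.33%, and higher ones where a read covers both CpGs. The difference between the doses was not tested, and the tile rests on 14 to 151 reads per library.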

How the results depend on the processing

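The count of changed tiles for young against fetal HSCs was 7; it was 2 in a fit of all 25 libraries, 3 at 20 points, and 5 to 7 with 1 library left out. For old against young it was 3, against 0 in the fit of all 25 libraries, 0 with limma on tile levels, and 0 to 2 with 1 library left out. The counts of higher tiles after 10 young, 10 old and 500 old cells were 7, 8 and 5; they were 4, 5 and 3 at 10 reads per CpG and 3, 5 and 2 at 20 points. For 10 young cells the count was 3 with 0 doses as control. With 1 library left out they were 7 to 8, 7 to 10 and 4 to 8. The counts of 0 stayed 0 in all alternatives run.

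In the picked 3 tiles, 5-FU minus 0 doses was -9.998 to 0.178 points with 1 library left out. Over the whole window it was -2.12 at 10 reads and 0.782 as a mean of CpG levels, against -1.16; fetal minus adult was 0.136 and -2.17, against -0.818. The cause was not tested. At 10 reads, the donor comparison gave no value at the picked tile.

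Replicate numbers were treated as names, not as pairs. Deviations of same-numbered libraries correlated by -0.0626 to 0.112, and of others by -0.112 to 0.0798. In groups of 2 libraries the deviations mirror each other, which ties these ranges together. They therefore cannot decide whether the numbers mark pairs. With a block for the replicate number, the count was 8 for young against fetal, with 87245001 among them, 2 for old against young, without 87223001, and 0 in each of the other comparisons that could be blocked. The tile at 87245001 is a picked tile, as is 87295001 in the unblocked count of 7. The young libraries' low level entered the choice of both tiles, so these calls support nothing. Of 150 alternatives for 14 named tile differences, 117 kept their side of the threshold, 31 lost it, 2 gained it and 0 reversed. An estimate of the within-library correlation from the median dispersion was added after the data were seen and changed no count.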

Other observations

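The CpG at 87306954, in the tile starting at 87306001, had 5 or more reads in 22 libraries. It read 26.3%, 50.0% and 11.1% after 10 young cells and 41.7% and 70.0% after 10 old cells. After 500 old cells it read 72.7%, 81.8% and 57.1%. Old libraries read 93.8% and 100%, the covered 0-dose libraries 100% each, and the 4-dose libraries 100% each. The 1 covered young library read 66.7%, the fetal libraries 60.0% and 42.9%, and the 2-dose libraries 97.9%, 76.5% and 100%. The single libraries read 57.1% after 50 old cells and 87.5% after 500 young cells. The 10-cell libraries lay below all old, 0-dose, 2-dose and 4-dose libraries, but 1 of the 10-old-cell libraries lay above the young library, and the fetal libraries lay within the range of the 10-cell ones. These values rest on 5 to 51 reads per library, were chosen after they were seen and were not tested.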
